A study of Homo sapiens with 26 samples.

Results

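The 10 genes described here encode the high mobility group chromatin proteins HMGN1 to HMGN5, HMGA1, HMGA2 and HMGB1 to HMGB3. They were found in the deposited table by matching Ensembl identifiers to gene symbols, which gave 10 of 41078 genes. The table holds 1 mRNA library for each of 26 single cell-derived cell lines (SCDCLs), with the label BxPC3 on 12 and Panc1 on 14 of them, and no SCDCL has a replicate library. BxPC3 and Panc1 are established lines of pancreatic ductal adenocarcinoma, and each SCDCL was expanded from 1 cell of its parental line. Every library is labelled as treated with gemcitabine, whereas the methods describe gemcitabine only in separate viability assays, so no treatment separates the groups here. The labels give no gemcitabine response for any library, and a comparison of resistant with sensitive SCDCLs was not analysed here.

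The libraries are described on the sides of a split by SMAD4, a mediator of TGF-beta signaling whose gene BxPC3 is known to lack. In 12 libraries, called SMAD4-low, SMAD4 lay between 0 and 0.0440 TPM, a relative level corrected for transcript length and library depth, and in the other 14, called SMAD4-high, it lay between 28.1 and 52.2 TPM. This split goes against the labels, because the SMAD4-low libraries comprise 5 labelled BxPC3 and 7 labelled Panc1 and the SMAD4-high libraries comprise 7 of each. SMAD4 thus goes against the label in 14 libraries, whose labels may be wrong, and values by label describe the libraries as labelled. The study made 12 SCDCLs of BxPC3 and 14 of Panc-1, the same numbers as the sides of the split. The sides may therefore be the parental lines, and values within a label may mix both lines. Differences that go with SMAD4 cannot be told apart from differences between the lines, and an effect of SMAD4 was not tested. The epithelial adhesion gene CDH1 lay between 90.8 and 198 TPM in the SMAD4-low and between 0.338 and 7.74 TPM in the SMAD4-high libraries. The mesenchymal filament gene VIM lay between 1.42 and 73.2 TPM in the former and between 3047 and 4526 TPM in the latter. The keratin genes KRT8, KRT18 and KRT19 were at 298 TPM or more in every library, and the blood cell marker PTPRC stayed at or below 0.535 TPM. The endothelial marker PECAM1 reached 6.07 TPM. Of the fibroblast markers, COL1A2 and DCN stayed at or below 1.07 TPM. COL1A1 lay between 8.92 and 26.5 TPM in the SMAD4-low and between 2.06 and 38.5 TPM in the SMAD4-high libraries. KRT8 and KRT18 went against CDH1, with medians of 461 and 521 TPM in the SMAD4-low and 2053 and 1598 TPM in the SMAD4-high libraries. KRT19 went with CDH1, with medians of 1966 and 1220 TPM. The mesenchymal cadherin gene CDH2 overlapped between the sides, at 1.31 to 7.45 TPM in the SMAD4-low and 3.35 to 184 TPM in the SMAD4-high libraries. A level in a bulk library does not tell fewer cells with a transcript from less transcript per cell. The total ranged from 27035724 to 34945608 estimated counts. SCDCLs were not replicated, so differences between libraries of 1 side hold both differences between clones and the error of 1 preparation.

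HMGN proteins bind nucleosomes and loosen chromatin in competition with linker histone H1. HMGA proteins bind the minor groove of AT-rich DNA through short AT-hook motifs and are known as oncofetal architectural factors, of which HMGA2 is repressed by the microRNA let-7. HMGB proteins bend DNA through HMG boxes, and HMGB1 is in addition released from dying or stimulated cells and acts as an alarmin on the receptor RAGE (encoded by AGER) and on Toll-like receptors. HMGB2 is known to be abundant in proliferating cells.

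HMGN5 and HMGB3, both on the X chromosome, were the members with separated ranges between the sides of the split, and the bases before their RefSeq starts are shown because later results refer to them. The sequences are those of RefSeq on GRCh38.p14, read 5′ to 3′ on the strand of the gene. The HMGN5 run holds 188 bases at chrX:81201914-81202101 on the minus strand, and the HMGB3 run holds 250 bases at chrX:150983085-150983334 on the plus strand. Capitals mark the CCAAT box, searched as CCAAT on both strands.
HMGN5: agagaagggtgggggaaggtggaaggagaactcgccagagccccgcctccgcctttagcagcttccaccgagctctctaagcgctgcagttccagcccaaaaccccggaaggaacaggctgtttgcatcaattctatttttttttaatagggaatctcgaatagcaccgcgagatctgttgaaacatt
HMGB3: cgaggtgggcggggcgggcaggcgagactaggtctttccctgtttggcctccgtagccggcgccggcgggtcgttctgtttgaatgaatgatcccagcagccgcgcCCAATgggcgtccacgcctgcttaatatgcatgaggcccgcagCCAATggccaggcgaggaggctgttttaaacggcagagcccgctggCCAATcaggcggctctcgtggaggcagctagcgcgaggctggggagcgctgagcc
The HMGB3 run holds 3 CCAAT boxes and HMGN5 holds none in its 250 bases, of which the outermost are left out because they belong to an exon of SH3BGRL. HMGB1 had 3, HMGN1 and HMGN3 had 2 each, HMGN2 had 1 and HMGN4 and HMGA1 had 0. The windows of HMGN1, HMGN3 and HMGB1 overlap annotated exons and leave 0 bases clear of them, and that of HMGA1 leaves 124. HMGB1 has 3 starts and HMGB3 and HMGA1 have 2 each, of which 1 window per gene was searched. Of 27305 gene promoters of the same length, 33.0% held at least 1 CCAAT box. The cell cycle element TTTGAA, searched on both strands, occurred 1 time before HMGB3 and in 13.6% of promoters. TATAAA occurred before none of the 8 members with a promoter entry and in 11.1% of promoters. HMGA2 and HMGB2 had no entry.

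All 10 members were expressed in every library and passed the filter on low counts. Gene spans are those of GENCODE 44 on GRCh38. On the TPM scale, which corrects for transcript length, the median level in the SMAD4-low libraries fell in the order HMGB1, HMGN2, HMGA1, HMGN1, HMGB2, HMGA2, HMGB3, HMGN3, HMGN4 and HMGN5, from 704 TPM for HMGB1 to 17.1 TPM for HMGN5. Neighbours in this order were often not separated. HMGB1 exceeded HMGN2 in 9 of 12 libraries, HMGA2 exceeded HMGB3 in 7 and HMGB3 exceeded HMGN3 in 4, whereas HMGN4 exceeded HMGN5 in 12 of 12. In the SMAD4-high libraries the order was HMGB1, HMGA1, HMGN2, HMGN1, HMGB3, HMGB2, HMGN4, HMGA2, HMGN3 and HMGN5, from 664 TPM to 4.54 TPM. HMGN2 exceeded HMGN1 in 7 of 14 libraries and HMGN4 exceeded HMGA2 in 7 of 14, so these pairs were not ordered by their levels.

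**Figure D1:**
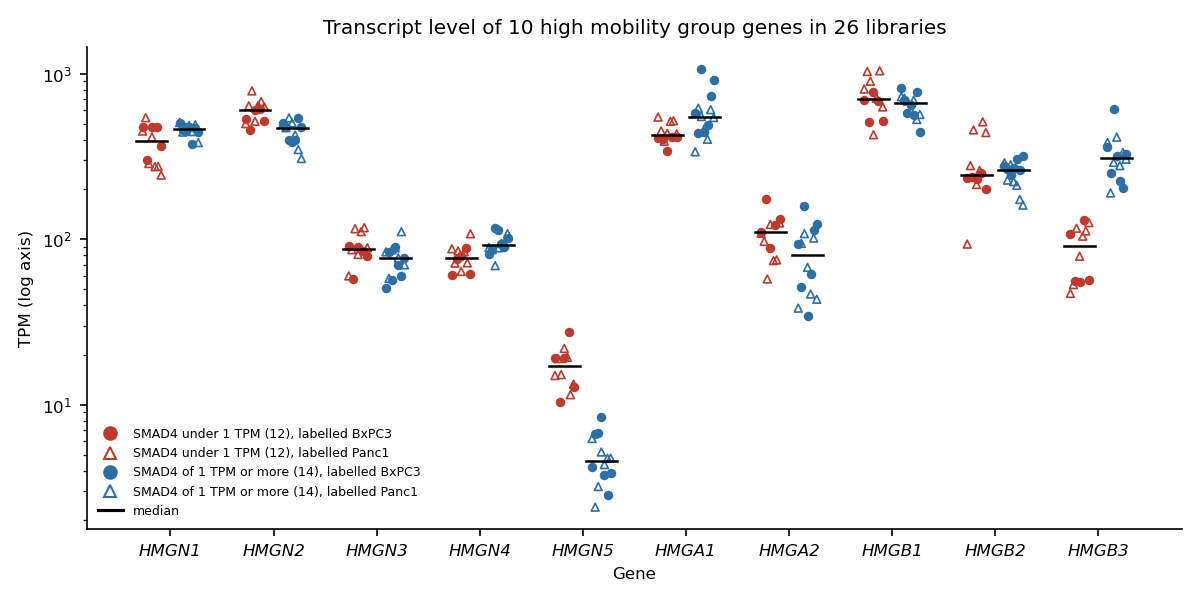
TPM of the 10 members (log axis) in each library, with SMAD4-low libraries in red, SMAD4-high libraries in blue, filled circles for the BxPC3 label, open triangles for the Panc1 label and a black line at the median of each side. HMGN5 and HMGB3 are the genes whose red and blue points do not overlap, at 10.4 to 27.4 against 2.40 to 8.47 TPM for HMGN5 and at 47.1 to 131 against 190 to 614 TPM for HMGB3.

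Between the sides of the split, 1 member was called higher (HMGN5) and 1 lower (HMGB3) in the SMAD4-low libraries. A call was an adjusted p under 0.05 in edgeR's quasi-likelihood test with an absolute log2 fold change over 1, adjusted by Benjamini-Hochberg over 16008 genes. The same rule called 39% of all genes (20% higher and 19% lower in the SMAD4-low libraries). With 10 members, a count of 2 is too small to tell their share from that of all genes. With limma on log2(TPM + 5) the rule also called 2 members, beside 2974 genes. With the adjusted p alone, 6 of 10 members passed, against 76.7% of all genes. This count was 3 in the libraries labelled Panc1 alone, 5 in those labelled BxPC3 alone, 4 in the 12 libraries whose SMAD4 goes with the label, 4 in the 14 where it goes against it, and between 5 and 7 when libraries were left out 1 at a time. With 1 left out, HMGN1 missed the threshold without B3, B5, B7, B8, B15 or B24 (adjusted p up to 0.10) and HMGA1 without B24 (0.051). HMGN3 passed without B1, B13, B21, B24 or B25 (down to 0.025), and HMGA2 without B3 or B18 (down to 0.022). The median absolute log2 fold change was 0.32 over the members and 0.74 over all genes tested. TPM ranges that did not overlap were found for 2 of 10 members and for 30% of the genes tested. The split was set by SMAD4 and not by the labels of the study, so these comparisons describe 12 and 14 libraries and their p-values carry the spread among those SCDCLs.

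HMGN5 (ENSG00000198157, chrX:81113699-81201913), a nucleosome-binding protein with a long acidic tail, ranged from 10.4 TPM in B21 through a median of 17.1 to 27.4 TPM in B25 among the SMAD4-low libraries. Among the SMAD4-high libraries it ranged from 2.40 TPM in B9 through a median of 4.54 to 8.47 TPM in B19. The lowest SMAD4-low library was thus above the highest SMAD4-high library. The difference was 3.54-fold (log2 fold change 1.82, SE 0.18, adjusted p = 2.6e-10 by edgeR's quasi-likelihood test). It was 1.72 on the log2 scale (SE 0.30) among libraries labelled BxPC3 and 1.95 (SE 0.21) among those labelled Panc1. HMGN5 was the least abundant member, with 48.1 to 477 estimated counts per library, and it was no longer tested when a mean of 10 CPM or more was required (CPM scales counts to the library total). Its annotated start lies 189 bases from that of SH3BGRL, a gene read on the other strand. SH3BGRL ranged from 56.5 to 109 TPM in the SMAD4-low and from 50.9 to 132 TPM in the SMAD4-high libraries, and its log2 fold change was -0.14 (SE 0.12, adjusted p = 0.31 by edgeR). SH3BGRL was looked up after the values of HMGN5 had been seen.

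HMGN2 (ENSG00000198830, chr1:26472440-26476642), an abundant ubiquitous member, ranged from 455 TPM in B21 through a median of 607 to 788 TPM in B3 among the SMAD4-low libraries and from 307 TPM in B14 through 473 to 541 TPM in B10 among the others. The ranges overlapped, with 7 of 12 SMAD4-low libraries above the highest SMAD4-high library. The log2 fold change was 0.42 (SE 0.10, adjusted p = 0.00032 by edgeR), below the size set for a call. HMGN4 (ENSG00000182952, chr6:26538366-26546933), a member close in sequence to HMGN2, had medians of 77.3 TPM in the SMAD4-low and 91.7 TPM in the SMAD4-high libraries, with a log2 fold change of -0.26 (SE 0.08, adjusted p = 0.0076 by edgeR). HMGN3 (ENSG00000118418, chr6:79201245-79234689), known as a partner of the thyroid hormone receptor, had medians of 87.6 and 77.1 TPM. Its log2 fold change was 0.24 with a 95% interval of 0.01 to 0.48 (unadjusted p = 0.0504, adjusted p = 0.065 by edgeR). The 95% intervals of the members are normal approximations from the SE, so they can be slightly narrower than the edgeR test implies. HMGN1 had medians of 391 and 462 TPM and a log2 fold change of -0.25 (SE 0.11, adjusted p = 0.037 by edgeR).

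HMGA1 (ENSG00000137309, chr6:34236873-34246231) ranged from 342 TPM in B24 through a median of 425 to 547 TPM in B1 among the SMAD4-low libraries. Among the SMAD4-high libraries it ranged from 338 TPM in B8 through 548 to 1069 TPM in B18, so no SMAD4-low library lay outside the SMAD4-high range. The log2 fold change was -0.39 (SE 0.15, adjusted p = 0.021 by edgeR). It was -0.74 (SE 0.24) among libraries labelled BxPC3 and -0.05 (SE 0.15) among those labelled Panc1. The test of this difference between labels gave 0.67 on the log2 scale (SE 0.28, unadjusted p = 0.025, adjusted p = 0.60 by edgeR), and no gene of 16008 passed that test after adjustment, while 1273 had an unadjusted p below 0.05. HMGA2 (ENSG00000149948, chr12:65824460-65966291) ranged from 57.5 TPM in B3 through 110 to 175 TPM in B21 in the SMAD4-low libraries and from 34.5 TPM in B19 through 80.5 to 159 TPM in B18 in the others. Its log2 fold change was 0.42 with a 95% interval of -0.02 to 0.86 (adjusted p = 0.087 by edgeR).

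HMGB3 (ENSG00000029993, chrX:150980509-150990771), the X-linked HMGB gene, ranged from 47.1 TPM in B1 through a median of 91.6 to 131 TPM in B25 among the SMAD4-low libraries and from 190 TPM in B9 through 311 to 614 TPM in B18 among the SMAD4-high libraries. Every SMAD4-low library was below every SMAD4-high library. The difference was 3.68-fold (log2 fold change -1.88, SE 0.19, adjusted p = 6.7e-10 by edgeR). It was -2.05 on the log2 scale (SE 0.32) among libraries labelled BxPC3 and -1.75 (SE 0.22) among those labelled Panc1. HMGB1 (ENSG00000189403, chr13:30456704-30617597) ranged from 428 TPM in B4 through 704 to 1042 TPM in B6 and from 444 TPM in B23 through 664 to 823 TPM in B15, and its log2 fold change was 0.19 with a 95% interval of -0.07 to 0.44 (adjusted p = 0.19 by edgeR). HMGB2 (ENSG00000164104, chr4:173331376-173334432) ranged from 93.4 TPM in B1 through 245 to 512 TPM in B6 and from 161 TPM in B14 through 263 to 318 TPM in B23. Its log2 fold change was 0.20 with a 95% interval of -0.15 to 0.55 (adjusted p = 0.31 by edgeR). Its sign turned within the BxPC3 label, where it was -0.26 (SE 0.09, adjusted p = 0.024 by edgeR), while within the Panc1 label it was 0.55 (SE 0.29, adjusted p = 0.098). The difference between these was 0.80 (SE 0.34, unadjusted p = 0.026, adjusted p = 0.61 by edgeR).

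By the labels alone, 0 of 10 members and 0 of 16008 genes were called between Panc1 and BxPC3 with edgeR (0% of all genes), 367 genes had an unadjusted p under 0.05, and DESeq2 called 2 genes. HMGN5 had medians of 7.61 TPM in libraries labelled BxPC3 and 8.87 TPM in those labelled Panc1, with a log2 fold change of 0.04 (SE 0.40, Panc1 over BxPC3). HMGB3 had medians of 215 and 158 TPM, with a log2 fold change of -0.15 (SE 0.40). Each label spans both sides of the split, so the wide errors of both genes hold the difference between the sides.

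The spread of the members among clones differed from gene to gene. The SD of log2(TPM + 1) among SMAD4-low libraries ran from 0.19 for HMGA1 to 0.65 for HMGB2, beside a median of 0.26 over the 9707 genes whose mean was 5 TPM or more on each side. Among SMAD4-high libraries it ran from 0.13 for HMGN1 to 0.69 for HMGA2, beside a median of 0.26. For HMGB2, 96.9% of genes had a smaller SD in the SMAD4-low libraries, and for HMGA2, 96.5% had a smaller SD in the SMAD4-high libraries. HMGN5, the member with the fewest counts, had an SD of 0.39 in the SMAD4-low and 0.42 in the SMAD4-high libraries.

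**Figure D2:**
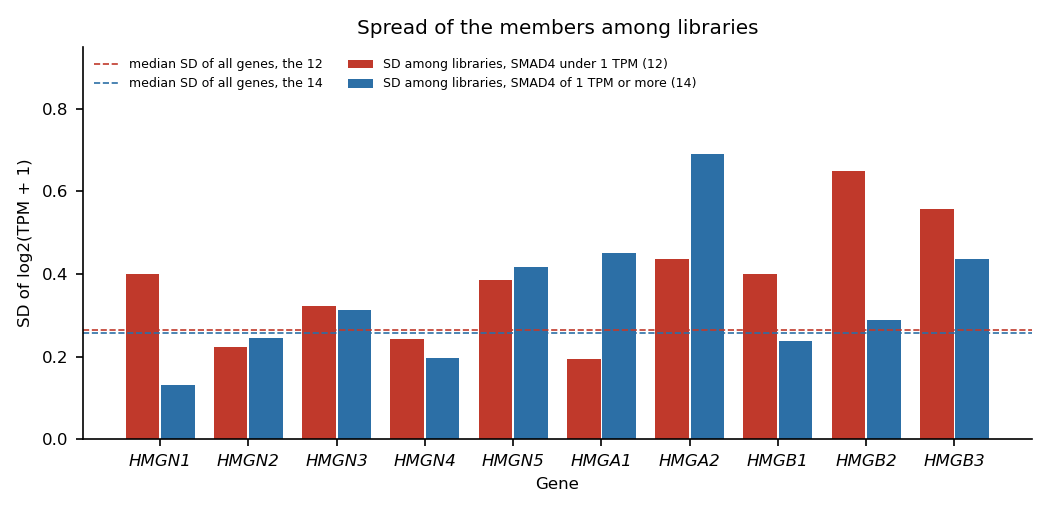
SD of log2(TPM + 1) among the 12 SMAD4-low (red) and the 14 SMAD4-high (blue) libraries for each member, with dashed lines at the median SD of all genes. HMGN1 stands at 0.40 in the SMAD4-low and 0.13 in the SMAD4-high libraries, and HMGA1 and HMGA2 show the opposite order.

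HMGN1 was the member called in the test of spread, which compared absolute deviations from the median of each side with limma over 9707 genes. The mean absolute deviation of log2(TPM + 1) was larger by 0.27 (SE 0.06, adjusted p = 0.033 by limma) in the SMAD4-low libraries, and 35 genes were called (0.361%). The call was close to its threshold. It was lost when any of 15 of the 26 libraries was left out (B3, B5, B6, B7, B9, B10, B11, B12, B17, B18, B19, B21, B22, B23 or B26), with adjusted p between 0.055 and 0.20 by limma and differences of 0.23 to 0.29. It was also lost on log2(CPM + 1), at an adjusted p of 0.29. HMGA1 and HMGA2 were more spread in the SMAD4-high libraries, with differences of -0.20 (SE 0.09, adjusted p = 0.44) and -0.28 (SE 0.12, adjusted p = 0.39) that did not pass by limma. HMGB2 differed by 0.22 (SE 0.14, adjusted p = 0.59 by limma). HMGN5 was not in this fit because its mean in the SMAD4-high libraries was under 5 TPM.

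HMGN1 (ENSG00000205581, chr21:39342315-39349647) encodes a ubiquitous nucleosome-binding protein from 21q22. In the SMAD4-low libraries it lay between 244 and 301 TPM in B3, B5, B6, B7 and B21 and between 367 and 543 TPM in the other 7, whereas all SMAD4-high libraries lay between 374 and 508 TPM. Of the 5 libraries with the lowest HMGN1, B21 is labelled BxPC3 and the other 4 are labelled Panc1. Genes of the same chromosome shared this order. Of 48 genes from RUNX1 (chr21:34787801 onward in GRCh38) to the end of the long arm, 17 had their 5 lowest values in the same libraries, compared with 0.218% of 9614 genes not on chromosome 21. The same held for 2 of 44 genes before RUNX1. Over the 12 SMAD4-low libraries, 38 of the 48 had a Pearson r of at least 0.7 with HMGN1, and their median r was 0.82. Within the 7 libraries with more HMGN1 the median r was 0.46, and over the 14 SMAD4-high libraries it was 0.09.

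Before RUNX1, values were mostly negative. Of 34 genes from MRPL39 to the last gene before RUNX1, 31 had a negative r with HMGN1 over the SMAD4-low libraries and none reached 0.7. Over all 44 genes before RUNX1, 32 were negative and 3 reached 0.7, all 3 of them among the genes before MRPL39. These 3, with ENSG00000280071 among them, have no symbol and start between chr21:5116341 and chr21:6484623. They include the 2 genes before RUNX1 with the same 5 lowest libraries. Whether they share reads with genes after RUNX1 was not tested. The interleukin-10 receptor gene IL10RB stood at -0.86 and the superoxide dismutase gene SOD1 at -0.74. Next to HMGN1, between it and RUNX1, the chromatin gene BRWD1 stood at 0.90, and toward the end of the arm the ribosome biogenesis gene RRP1B stood at 0.96. These coefficients describe libraries that fall into separate sets, so they carry no p-value. The borders at RUNX1 and at MRPL39 were both set after the values were seen. The DNA of the SCDCLs was not analysed here.

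**Figure D3:**
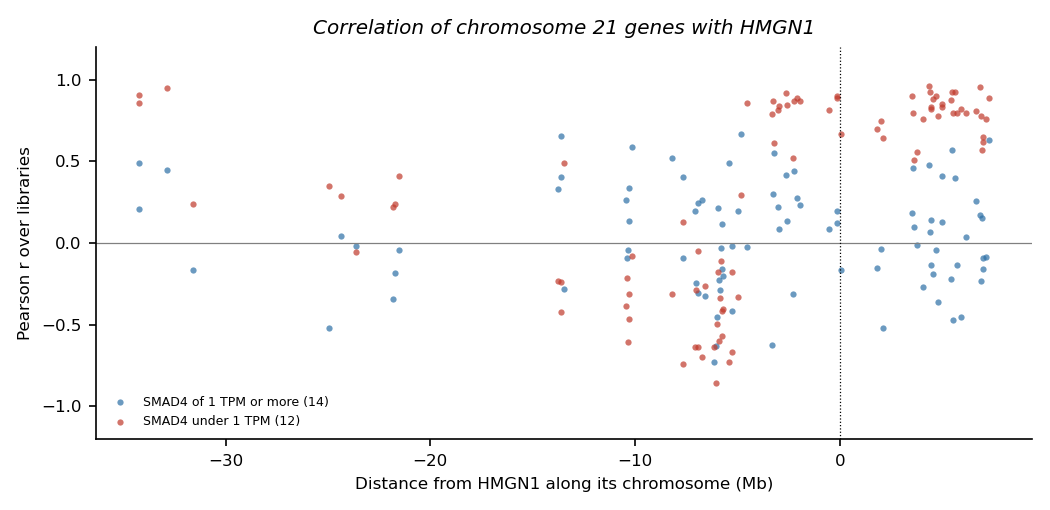
Pearson r of log2(TPM + 1) with HMGN1 for 92 genes of chromosome 21 against their distance from HMGN1 in Mb, over the 12 SMAD4-low (red) and the 14 SMAD4-high (blue) libraries. Red points sit near the top from RUNX1 to the end of the arm and mostly under 0 just before it, while blue points scatter around a median of 0.05.

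The HMGB genes were set against their own chromosomes in the same way. Of genes starting within 5 Mb of HMGB3, 43 of 52 had an r of at least 0.7 with it over the SMAD4-low libraries, compared with 4.98% of 9005 genes on other chromosomes. Without the 2 libraries farthest from the HMGB3 median, 40 of 52 reached 0.7. The 5 libraries with the least HMGB3 (B1, B2, B21, B24 and B26, at up to 57.0 TPM) were also the lowest for 38 of the 52 neighbours, compared with 0.755% of genes on other chromosomes. The next library stood at 78.9 TPM. Toward the centromere, 46 of 54 genes lying 5 to 40 Mb from HMGB3 reached 0.7, 7 of 32 genes at 40 to 60 Mb and 7 of 155 genes beyond 60 Mb. HMGN5, on the same arm of the chromosome, had an r of 0.22 with HMGB3 in these libraries (rho = 0.20, n = 12) and of 0.62 in the SMAD4-high libraries (rho = 0.62, n = 14). Over the 14 SMAD4-high libraries, 1 of the 52 neighbours reached 0.7, and the median r was 0.09.

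For HMGB2 at 4q34, 11 of 12 genes within 5 Mb had an r of at least 0.7 over the SMAD4-low libraries, compared with 2.79% of genes on other chromosomes. Without the 2 libraries farthest from the HMGB2 median, 7 of 12 reached 0.7. B1, the library with the least HMGB2, was also the lowest SMAD4-low library for 10 of the 12 neighbours and for 9.50% of genes on other chromosomes. The pattern reached the end of the chromosome, with 15 of 18 genes more than 5 Mb beyond HMGB2 at or over 0.7, and faded on the side of the centromere, with 6 of 21 genes at 5 to 25 Mb and 2 of 250 genes farther away. For HMGB1 on 13q, 12 of 20 genes within 5 Mb reached 0.7, compared with 3.94% of genes on other chromosomes, and 14 of 20 did so without the 2 farthest libraries. Over the whole of chromosome 13, 77 of 152 genes reached 0.7. The 3 libraries with the least HMGB1 (B4, B21 and B26) were the lowest for 3 of the 20 neighbours (15%) and for 8.48% of genes on other chromosomes. Over the SMAD4-high libraries no gene within 5 Mb of HMGB1 or HMGB2 reached 0.7 (5 and 1 without the 2 farthest libraries), and the median r was 0.41 near HMGB1 and 0.03 near HMGB2.

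**Figure D4:**
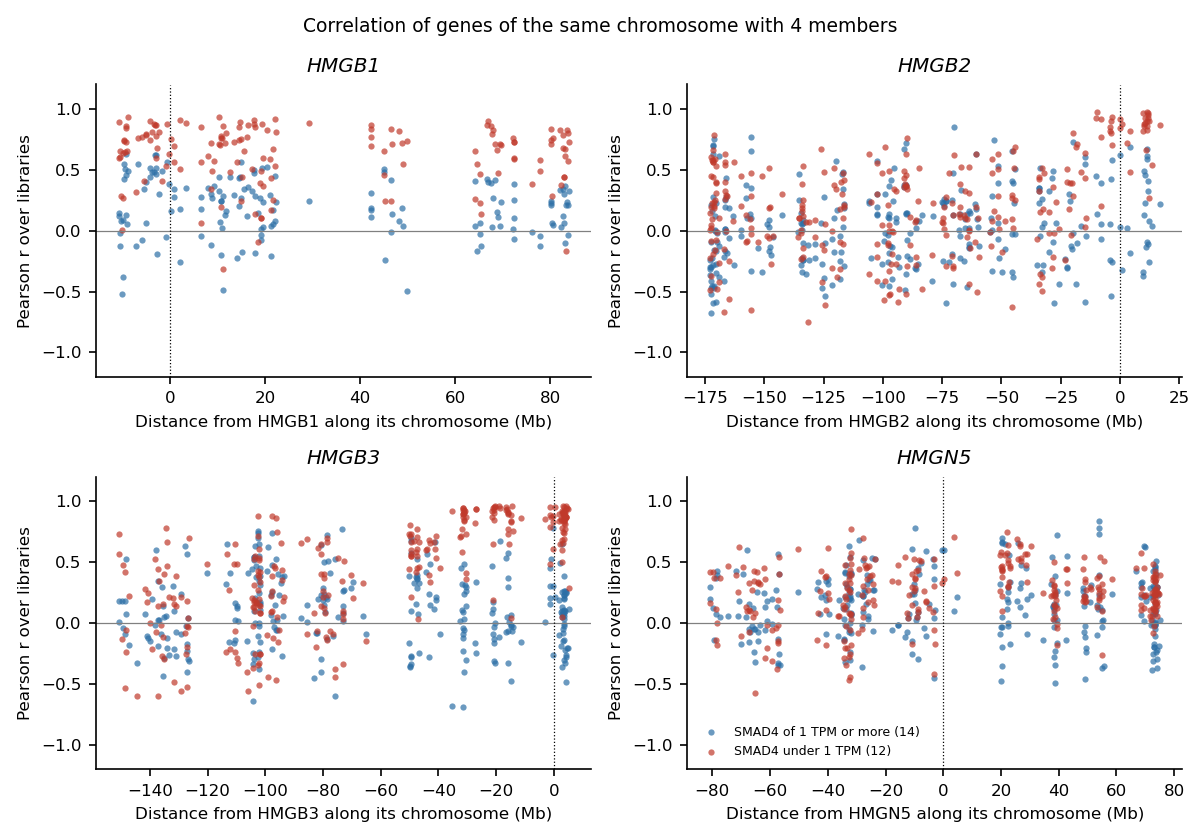
Pearson r with HMGB1, HMGB2, HMGB3 and HMGN5 for genes of the same chromosome against distance in Mb (distance is taken between gene starts), over the 12 SMAD4-low (red) and the 14 SMAD4-high (blue) libraries. Red points rise toward 1 along chromosome 13 for HMGB1, in the last part of 4q for HMGB2 and in about the last 40 Mb of Xq for HMGB3, while for HMGN5 only 3 of 295 genes reached 0.7.

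For the remaining members in the SMAD4-low libraries, an r of at least 0.7 was reached by 12 of 78 genes within 5 Mb of HMGN2 (9.80%), 1 of 13 near HMGN3 (5.35%), 0 of 32 near HMGN4 (0.968%), 1 of 11 near HMGN5 (1.09%), 1 of 74 near HMGA1 (0.203%) and 2 of 26 near HMGA2 (3.30%), with the share on other chromosomes in parentheses. Neighbouring genes were examined after the members' values had been seen, and genes of 1 chromosome are not independent of each other.

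Over all 26 libraries, after the mean of each side had been subtracted, the gene most like HMGN1 was RRP1B (r = 0.92), followed by SLX9 (0.85) and the gene with the identifier ENSG00000280071 (0.83), all of chromosome 21. HMGB1 was most like its processed pseudogene HMGB1P6 (0.93), and the calcium-binding protein gene PEF1 (0.81) was also among the most like it. For HMGN5 the coefficients were lower, with MMP24OS (0.68), the lipid phosphatase gene MTMR3 (0.66) and the mitochondrial carrier gene SLC25A23 (0.65). These ranks are out of the same 9707 genes and share the libraries from which all values came.

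Members were also compared with each other within each side, as a description over 45 pairs. In the SMAD4-low libraries, 6 pairs had an absolute r of at least 0.7, 3 of them positive. HMGN2 and HMGN3 went together (r = 0.86, rho = 0.87, r = 0.77 without the 2 libraries farthest from the HMGN2 median). B3, B5 and B6 held the 3 highest values of both and B1 and B21 the 2 lowest. HMGA2 ran against HMGN2 (r = -0.84, rho = -0.75, r = -0.62 without the 2 libraries farthest from the HMGN2 median). It also ran against HMGN3 (r = -0.82, rho = -0.78, r = -0.90 without the 2 libraries farthest from the HMGN3 median). The highest level of HMGA2 was in B21 and its lowest in B3. An absolute r as large as that of HMGN2 with HMGN3 was found between HMGN2 and 1.41% of genes, as large as that with HMGA2 for 2.24% of genes, and as large as that of HMGN3 with HMGA2 between HMGN3 and 1.07% of genes. The other 3 pairs were HMGN2 with HMGB2 (r = 0.73), HMGN3 with HMGB2 (r = 0.74) and HMGA2 with HMGB1 (r = -0.71), which 10.4%, 4.95% and 7.90% of genes matched for the first gene of the pair.

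In the SMAD4-high libraries, 2 pairs reached an absolute r of 0.7. HMGA1 and HMGA2 went together (r = 0.87, rho = 0.89, r = 0.82 without the 2 libraries farthest from the HMGA1 median, n = 14), which 0.0927% of genes matched for HMGA1. B18, B23 and B22 held the 3 highest values of both genes, at 1069, 913 and 731 TPM for HMGA1 and 159, 123 and 114 TPM for HMGA2. All 3 are labelled BxPC3. In the SMAD4-low libraries the same pair had an r of -0.15 (rho = -0.15, n = 12). The difference between these coefficients was not tested. The other pair was HMGN2 with HMGN4 (r = -0.71, rho = -0.77, n = 14), which 3.51% of genes matched for HMGN2.

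**Figure D5:**
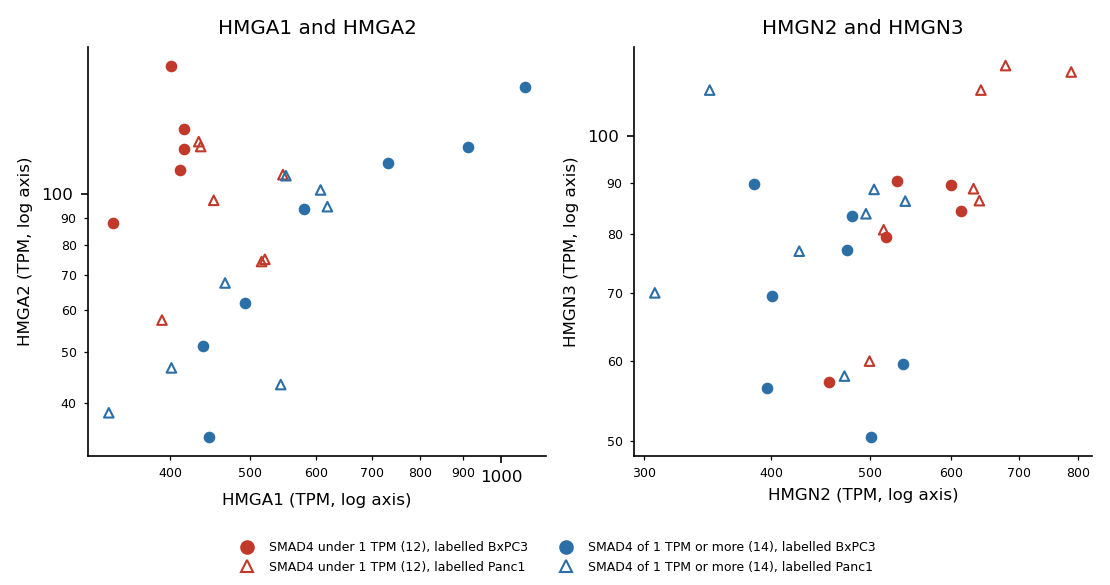
TPM of HMGA2 against HMGA1 (left) and of HMGN3 against HMGN2 (right) in each library on log axes, with colours for the side of the split and symbols for the label. In blue, HMGA1 and HMGA2 rise together up to B18 at 1069 and 159 TPM, and in red, HMGN2 and HMGN3 rise together up to B3 at 788 and 116 TPM.

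Some members are known to follow the cell cycle, so each was set against a proliferation score, the mean z-score of 36 genes of S phase and G2/M, within each side. In the SMAD4-low libraries 0 of 10 members passed at an adjusted p under 0.05, beside 233 of 16790 genes (1.39%), and 3320 genes had an unadjusted p under 0.05. HMGB2 had a slope of 0.40 on the log2 scale per SD of the score (SE 0.15, adjusted p = 0.15 by edgeR; r = 0.73, rho = 0.76, r = 0.53 without the 2 farthest libraries) and HMGB3 of 0.35 (SE 0.11, adjusted p = 0.11; r = 0.75, rho = 0.78, r = 0.67 without them). Without these 2 libraries the slope of HMGB2 was 0.20 (SE 0.15, adjusted p = 0.60 by edgeR) and that of HMGB3 was 0.28 (SE 0.12, adjusted p = 0.34). With limma on log2(TPM + 1) both passed, at adjusted p of 0.033 and 0.029. HMGN2 had as high an r in the SMAD4-low libraries (0.75, rho = 0.69, r = 0.57 without the 2 farthest libraries). Its slope was 0.10 (SE 0.07, adjusted p = 0.42 by edgeR). HMGN3 had an r of 0.63 and a slope of 0.13 (SE 0.09, adjusted p = 0.45 by edgeR). In the SMAD4-high libraries 0 of 10 passed, beside 337 of 16251 genes (2.07%), and 2423 had an unadjusted p below 0.05. HMGB2 had a slope of 0.23 (SE 0.06, adjusted p = 0.062 by edgeR; r = 0.79, rho = 0.81, r = 0.86 without the 2 farthest libraries). It passed without B18 (adjusted p = 0.044) or without B22 (adjusted p = 0.047) and with limma (adjusted p = 0.022). HMGN2, which was the next, had a slope of 0.18 (SE 0.06, adjusted p = 0.15 by edgeR), which was 0.088 (SE 0.07, adjusted p = 0.80) without the 2 farthest libraries. The slope of HMGB2 without them was 0.19 (SE 0.05, adjusted p = 0.36). HMGB3 had a slope of -0.18 there (SE 0.12, adjusted p = 0.53 by edgeR).

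Other genes of the members' pathways were counted in the same fit, against the 39% of all genes called. Of 6 tested linker histone genes, the competitors of HMGN proteins on nucleosomes, 5 were called higher and 0 lower in the SMAD4-low libraries, with a median log2 fold change of 2.58. H1-2 ranged from 354 to 1222 TPM in the SMAD4-low and from 26.3 to 120 TPM in the SMAD4-high libraries, a log2 fold change of 3.28 (SE 0.24). H1-3 (5.73, SE 0.47), H1-5 (3.15, SE 0.49) and H1-4 (2.02, SE 0.25) were also higher, at up to 22.4 TPM, and H1-10 was under the size of a call at 0.32 (SE 0.12). Transcripts of most H1 genes lack a poly(A) tail and the libraries were made from polyadenylated RNA, so these values cover the polyadenylated part alone.

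Of 15 tested genes with other HMG boxes, 2 were called higher and 1 lower. TOX2, an HMG-box gene studied in lymphocytes, was lower, at 1.58 to 7.32 TPM against 24.6 to 63.1 TPM (log2 fold change -3.48, SE 0.21), and BBX was higher (1.56, SE 0.19). TOX was called at 1.48 (SE 0.62) but not without B6, where it was 1.08 (adjusted p = 0.11 by edgeR), and it lay at or below 3.44 TPM throughout. SSRP1, the HMG-box subunit of the FACT histone chaperone, had a log2 fold change of 0.30 (SE 0.11) and was not called.

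Of 11 tested HMGB receptors and partners, 3 were called higher and 1 lower in the SMAD4-low libraries. The Toll-like receptor genes TLR4 (4.50 to 21.96 against 0.0186 to 1.12 TPM, log2 fold change 6.12, SE 0.52) and TLR2 (9.01 to 35.8 against 0.0753 to 1.76 TPM, 4.61, SE 0.31) and AGER (1.02 to 4.95 against 0.118 to 1.33 TPM, 1.95, SE 0.30) were higher. The deacetylase gene SIRT1 was lower (-1.24, SE 0.08). HMGB1 itself, the ligand of these receptors, had a log2 fold change of 0.19 and was not called.

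Of 10 tested genes around HMGA2 and let-7, 1 was called higher and 4 lower. IGF2BP1, an RNA-binding protein gene and let-7 target, was at 0 to 1.61 TPM in the SMAD4-low and 12.3 to 40.5 TPM in the SMAD4-high libraries (log2 fold change -5.39, SE 0.42). The uridylyltransferase gene TUT7 was higher (1.40, SE 0.09), and TUT4 (-1.17, SE 0.09) and ARID3A (-1.10, SE 0.20) were lower. IGF2BP3 was called at -1.05 (SE 0.12) and fell under the size of a call without B23, at -0.98. LIN28B, a repressor of let-7 processing, had a log2 fold change of 0.11 (SE 0.14), and let-7 itself was not analysed here. Of the 20 G2/M genes 1 was called higher (CCNA2, 1.92, SE 0.48) and 1 lower (BUB1, -1.05, SE 0.09). CCNA2 overlapped between the sides, at 22.9 to 51.3 TPM in the SMAD4-low and 0.00051 to 33.9 TPM in the SMAD4-high libraries. Whether read assignment enters its lowest values was not tested. Of the 16 S phase genes 5 were called higher, among them GINS2 (1.23, SE 0.17), MCM4 (1.18, SE 0.17) and CDC45 (1.16, SE 0.11), and 1 lower (RRM2, -1.62, SE 0.14).

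Read assignment limits the levels of some members, since near-identical copies of these genes are spread over the genome. Of the 31-base words in its transcripts, HMGN2 shared 19.9% with other genes, HMGA1 17.7%, HMGB1 16.1%, HMGB3 9.75% and HMGN1 8.61%, while HMGN3, HMGA2 and HMGB2 shared at most 1.71% and HMGN4 and HMGN5 at most 0.204%. Of 156 pseudogenes of the members in the table, 8 had a mean of at least 1 TPM. HMGB1P6 was listed at 88.7 to 255 TPM, which is 18.01% to 27.3% of HMGB1 in the same library, and 63.5% of its words were also in HMGB1, so how far shared reads enter its level and its r of 0.93 with HMGB1 cannot be told apart. HMGN1P1 reached 19.6 TPM, HMGN1P8 16.95 TPM, HMGN2P15 12.9 TPM, HMGB1P33 11.8 TPM, HMGB1P5 9.62 TPM, HMGN2P46 5.44 TPM and HMGA1P8 3.85 TPM in the library with the most. In each library these 7 were at most 5.11% of the gene they resemble.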

How the data were processed

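Polyadenylated RNA of 26 SCDCLs was sequenced from both ends with the strand kept. Per the labels, the authors assigned reads to human transcripts with kallisto 0.46.1 (GRCh38), and the deposited table gives TPM and estimated counts per gene, the latter rebuilt from TPM with transcript lengths at the depth of each library and not normalized between libraries. Of 41078 genes, 36315 had a symbol in GENCODE 44. The table's 780 columns of resampled counts and 26 of transcript length were not used.

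Estimated counts were rounded and tested with edgeR 4.0.16 (filterByExpr, TMM, quasi-likelihood) in R 4.3.3, with DESeq2 1.42.0 as an alternative. Spread and alternative tests used limma 3.58.1 on log2(TPM + 1). Other steps ran in Python 3.11.15 (scipy 1.17.1, pandas 2.3.3, numpy 2.4.6). Correlations are of log2(TPM + 1). The edgeR fits of the split, the labels and the score and the limma fit of spread were run on simulated data with a preset spread between libraries. The test of differences between labels in the effect of the split and the alternative tests were not. Alternatives changed the normalization, test, pseudocount, filter, covariate, score genes and libraries. Libraries were split at a SMAD4 level of 1 TPM.

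The members and lists were chosen with earlier results of these data known. Named genes were the 10 members, SMAD4, VIM and CDH1, up to 4 called genes per list with the largest fold change, the 3 genes most like HMGN5 and the 2 members with the highest r, and pseudogenes with a mean of at least 1 TPM. A gene that this rule gives is not reported here. BRWD1, IL10RB, SOD1, SH3BGRL, SSRP1, LIN28B, H1-10, PTPRC, PECAM1, COL1A1, COL1A2, DCN and CDH2 were named after their values were seen. Sleuth and the response groups of the study were not used here.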

Additional observations from a re-analysis of the deposited data

Results flagged for a closer look

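In 40 cells made of 1 member and the libraries of 1 label on 1 side of the split, each of 5 or 7 libraries, 2 held a library far from the others, and chance gives about 1 in 20. B24 had 342 TPM of HMGA1, while the other 4 SMAD4-low libraries labelled BxPC3 lay between 401 and 416 TPM. B18 had 614 TPM of HMGB3, while the other 6 SMAD4-high libraries labelled BxPC3 lay between 204 and 362 TPM. B18 also held the highest HMGA1, HMGA2 and HMGN4 of the SMAD4-high libraries.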

How the results depend on the processing

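HMGN5 and HMGB3 were called on the split under every alternative that tested them and with any 1 library left out. HMGN5 lay between 1.15 and 1.98 on the log2 scale over 38 alternatives, the lowest with limma on log2(TPM + 5), and HMGB3 between -2.05 and -1.75 over 39. With a mean of at least 10 CPM required, 1 member was called because HMGN5 was not tested, and 3203 genes were called (1623 higher, 1580 lower). The number of all genes called was 2974 with limma on log2(TPM + 5) (1512 higher, 1462 lower) and 10223 without a filter (5702 higher), and DESeq2 called 4964 higher. Leaving out 1 library gave 6181 to 6361. Signs turned for members that were not called. HMGN3 was -0.042 and HMGB1 -0.049 in the 12 libraries whose SMAD4 goes with the label, and HMGB1 was -0.053 and HMGB2 -0.26 (adjusted p = 0.024 by edgeR) in libraries labelled BxPC3. On adjusted p alone, 3 to 7 members passed over these alternatives. HMGN1 missed with DESeq2 size factors (0.064), DESeq2 (0.069), the stricter filter (0.083) and within the BxPC3 (0.34) and Panc1 (0.11) labels. HMGN2 missed within the BxPC3 label (0.095), and HMGN4 (0.40) and HMGA1 (0.77) missed within the Panc1 label.

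Between labels, DESeq2 called 2 genes over all libraries. In the 12 libraries whose SMAD4 goes with the label and in the 14 where it goes against it, chosen after seeing the data, label and side are 1 grouping, so the 2 and 2 members and the 6566 and 6036 genes called there restate the split and are no calls between labels. HMGN5 turned to -0.16 with the side of the split as covariate, to -0.034 within the SMAD4-low, -0.25 within the SMAD4-high and, as the split restated, -1.98 within those 12 libraries, and HMGB3 to 0.056, 0.23 within the SMAD4-low and 1.97 within those 12. With 1 library left out HMGN5 lay between -0.080 and 0.25 and HMGB3 between -0.27 and 0.11.

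The test of spread called 0 members on log2(CPM + 1), and it called 21 genes with a pseudocount of 0.1, 1598 without a filter and 213 with deviations from the mean. With 1 library left out it called 0 to 1 members and 3 to 41 genes. In the SMAD4-low libraries the proliferation score called 1 member with S phase genes alone (HMGB3) and 2 with limma, among 607 and 1254 genes, and 1 gene with G2/M genes alone. In the SMAD4-high libraries it called 1 member with G2/M genes alone (HMGB2) and 2 with limma (HMGB2 and HMGN2). It called 213 genes there with S phase genes alone and 512 with limma. Without the 2 libraries farthest from the median score 0 genes were called on either side by edgeR, with 2278 and 1300 at an unadjusted p under 0.05. With 1 library left out it called 1 to 587 genes on the SMAD4-low side and 77 to 433 genes and 0 to 1 members on the SMAD4-high side. The causes of these changes were not tested. No paired analysis was possible because the labels of BxPC3 and Panc1 libraries share no numbers. Without replicate libraries the error of a preparation is not known apart from the spread among clones, and HMGN5 had 48.1 to 477 estimated counts in a library, which limits its precision.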
